A study of Mus musculus with 2 samples.

Results

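The genes described here are 10 interferon-inducible GTPases of mouse regulatory T cells (Tregs), which are marked by the transcription factor Foxp3 and hold immune responses in check. They comprise 5 guanylate-binding proteins (GBPs), Gbp2, Gbp3, Gbp6, Gbp7 and Gbp8, and 5 immunity-related GTPases (IRGs), Iigp1, Igtp, Irgm1, Irgm2 and Ifi47. They were chosen by gene family, with earlier results of these data known, and they do not cover the whole families. The GBP gene Gbp2b, for one, has a probe set of its own and is described apart. Used was every probe set that the platform annotation gives to exactly 1 gene when that gene is one of the 10. This gave 14 probe sets for the 10 genes, out of 18193 genes with such a probe set on the array. RNA came from splenic CD4+Foxp3+ Tregs, isolated by cell sorting from naive mice of 10 weeks on the C57BL/6 background. The mice called DNR have a TGF-beta receptor II of dominant negative form, which blocks the response to TGF-beta, a cytokine that restrains T cells. The WT mice are wild type, by title and genotype label, although the sorting protocol of the WT sample also names DNR mice. There was 1 Affymetrix array for DNR Tregs and 1 for WT Tregs. The promoter of the transgene and the number of mice behind each RNA were not stated in the sources used here.

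GBPs and IRGs are GTPases that cells make in large amounts when exposed to interferons, above all interferon-gamma. They assemble on the membranes of vacuoles that hold intracellular parasites or bacteria and help to break these vacuoles open. Within the IRG family, Iigp1 (Irga6) and Ifi47 (Irgd) are effectors that load onto such vacuoles, while Irgm1, Irgm2 and Igtp (Irgm3) sit on the membranes of the cell and keep the effectors inactive there. The comparison asks how these transcripts differ between Tregs with impaired TGF-beta receptor signalling and WT Tregs.

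Each genotype had a single array, so differences between them could not be tested, and values stand without p-value or standard deviation. Values are MAS5 signals, the brightness of a probe set on a linear scale. The higher of the median signals of the arrays over 45037 probe sets, 110.9, served as a floor to which lower values were set, and a gene was called measured if its brightest probe set exceeded the floor on at least 1 array. Ratios are DNR over WT on the log2 scale. A difference of 2-fold was the threshold for a call. Both arrays had a mean of 500.0 once the highest and lowest 2% of values were left out, but the medians differed, at 110.9 for DNR and 91.0 for WT. Of the probe sets for control RNAs added at hybridisation, 18 of 18 gave more signal for DNR, at the median 1.95-fold. Of those for poly-A control RNAs, 20 of 27 gave more signal for DNR, at the median 1.24-fold. Their part in the results was not tested.

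All 14 probe sets of the 10 genes had a higher signal in DNR Tregs than in WT Tregs. All lay far above the floor on both arrays, at between 9.63 and 116 times the floor in DNR Tregs and between 7.75 and 92.8 times in WT Tregs. The 10 genes were chosen with earlier results known, so the count of higher genes is no independent support. Of 4 measured relatives outside the 10, 2 were higher and 2 lower. Among the lower ones was the GBP gene Gbp2b, with 797 in DNR Tregs and 924 in WT Tregs. With each gene represented by its brightest probe set, the 10 ratios ran from 1.24-fold to 3.10-fold with a median of 0.61 on the log2 scale, or 1.53-fold. Of 11927 measured genes, 51.4% had a higher signal in DNR Tregs, and their median log2 ratio was 0.01. Among the 4473 genes that exceeded the floor on each array and were at least as bright as the dimmest of the 10, Irgm2, 44.8% were higher in DNR Tregs. Differences of at least 2-fold were fewer. Iigp1 and Gbp2 passed that threshold, 2 of the 10, and 8 lay below it. Of all measured genes 4.00% were at least 2-fold higher, and of the 4473 bright genes 1.23%. None of the 10 was at least 2-fold lower, against 2.93% of measured genes.

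**Figure D1:**
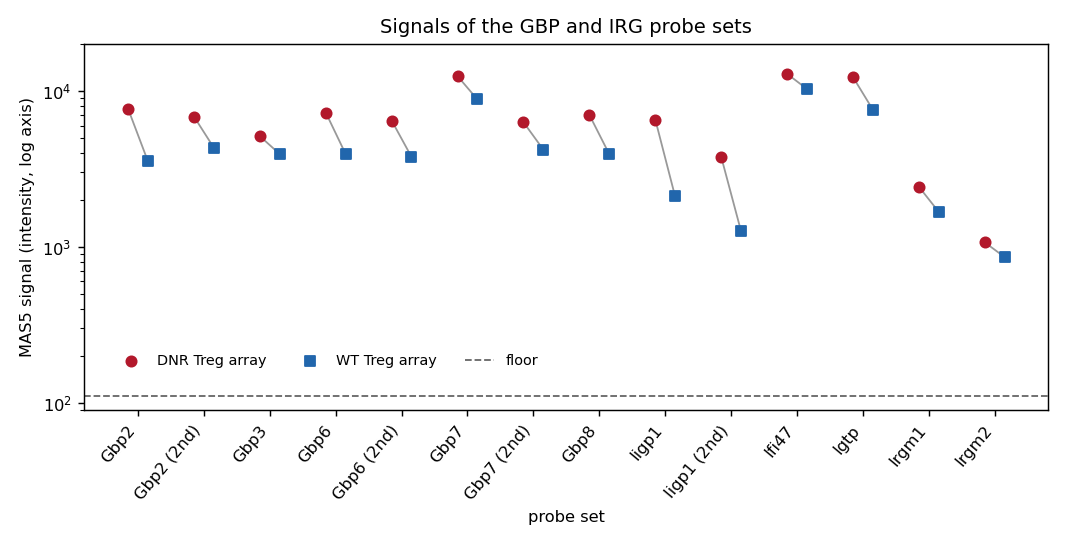
MAS5 signal (log axis) of each of the 14 probe sets on the DNR array (red circles) and the WT array (blue squares), with the other probe set of a gene marked 2nd and the floor of 110.9 as a dashed line. Every red circle stands above its blue square, with the widest gaps at the probe sets of Iigp1.

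Iigp1, an effector IRG, had the highest ratio of the 10. Its brighter probe set had a signal of 6546 in DNR Tregs and 2111 in WT Tregs, a 3.10-fold difference, and its other probe set had 3776 in DNR Tregs and 1265 in WT Tregs, a 2.98-fold difference. The log2 ratios of these probe sets differed by only 0.06, although the brighter one carries the ending _a_at, which marks probes shared by several transcripts of a gene. Of 11927 measured genes, 47 had a ratio at least as high as that of its brighter probe set, Iigp1 included, or 0.394%. The other effector IRG, Ifi47, was the brightest of the 10 in both genotypes and among the least different, with 12871 in DNR Tregs and 10296 in WT Tregs, 1.25-fold. The effectors were therefore at opposite ends of the family.

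The 3 regulatory IRGs lay between them or beside Ifi47. Igtp had a signal of 12252 in DNR Tregs and 7596 in WT Tregs, 1.61-fold higher. Irgm1, which is also needed for autophagy and for the survival of T cells in infected mice, had 2427 in DNR Tregs and 1678 in WT Tregs, 1.45-fold higher. Irgm2 was the dimmest, with 1068 in DNR Tregs and 860 in WT Tregs, and its 1.24-fold difference was the smallest of the 10. The log2 ratios of the 5 IRGs had a median of 0.53.

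Among the GBPs, Gbp2, which coats parasite vacuoles in mouse cells, had the highest ratio and also the largest disagreement between probe sets. Its brighter probe set had 7690 in DNR Tregs and 3554 in WT Tregs, 2.16-fold. The other had 6852 in DNR Tregs and 4334 in WT Tregs, 1.58-fold, so that only 1 of them passed the threshold. The probe set that passed has the ending _x_at, which marks probes that can bind other transcripts as well. GBP genes are close relatives, and how much of that signal came from other GBPs was not tested.

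Gbp6 and Gbp8 came close to the threshold. Gbp6 had 7265 in DNR Tregs and 3951 in WT Tregs, 1.84-fold, and its other probe set 6450 in DNR Tregs and 3782 in WT Tregs, 1.71-fold. Gbp8 had 7014 in DNR Tregs and 3942 in WT Tregs, 1.78-fold. Both genes belong to the GBP cluster on chromosome 5, whereas Gbp2, Gbp3 and Gbp7 lie in the cluster on chromosome 3.

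Gbp7 and Gbp3 differed less. Gbp7, the brightest GBP, had 12430 in DNR Tregs and 8828 in WT Tregs, 1.41-fold, and its other probe set 6298 in DNR Tregs and 4210 in WT Tregs, a log2 ratio of 0.58. Gbp3 had 5127 in DNR Tregs and 3942 in WT Tregs, 1.30-fold, on a single probe set, also with the ending _a_at. The log2 ratios of the 5 GBPs had a median of 0.83, above the 0.53 of the IRGs, but their ranges overlapped: 0.38 to 1.11 for the GBPs and 0.31 to 1.63 for the IRGs.

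The disagreement between probe sets of 1 gene is the only error that these arrays can give, and it holds no variation between mice, sorts or hybridisations. Over 3968 genes with a pair of well-measured probe sets, the log2 ratio of a probe set had a robust standard deviation of 0.36. Over the 2646 of these as bright as the dimmest of the 10 it was 0.31. The log2 ratios of Irgm2 and Ifi47, 0.31 and 0.32, were about as large as this spread, and Gbp3 was at 0.38. Those of Gbp2, Gbp6, Gbp8, Igtp and Iigp1 were more than 2 times the spread of the bright genes. For the 4 genes with a pair of probe sets, Gbp2, Gbp6, Gbp7 and Iigp1, both probe sets of each were higher in DNR Tregs, and they differed from each other by 0.06 to 0.45.

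The spread of log2 ratios narrows with brightness, so each gene was also set against genes of like signal. The 9281 genes that exceeded the floor in both genotypes were ordered by mean signal and cut into 20 bins of 464 or 465. All 10 GTPase genes had a log2 ratio above the 75th percentile of their own bin, a level that 25% of genes in a bin exceed by construction. Above the middle 95% of their bin were 5 of them, Iigp1, Gbp2, Gbp6, Gbp8 and Igtp. For Igtp the margin was small, its 0.69 against an upper edge of 0.67. Gbp2 was above it on its _x_at probe set only, since the 0.66 of its other probe set was under the edge of 0.71. The genes lie in clusters, respond to the same inducers and were measured on the same pair of arrays, so they do not count as 10 independent observations.

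**Figure D2:**
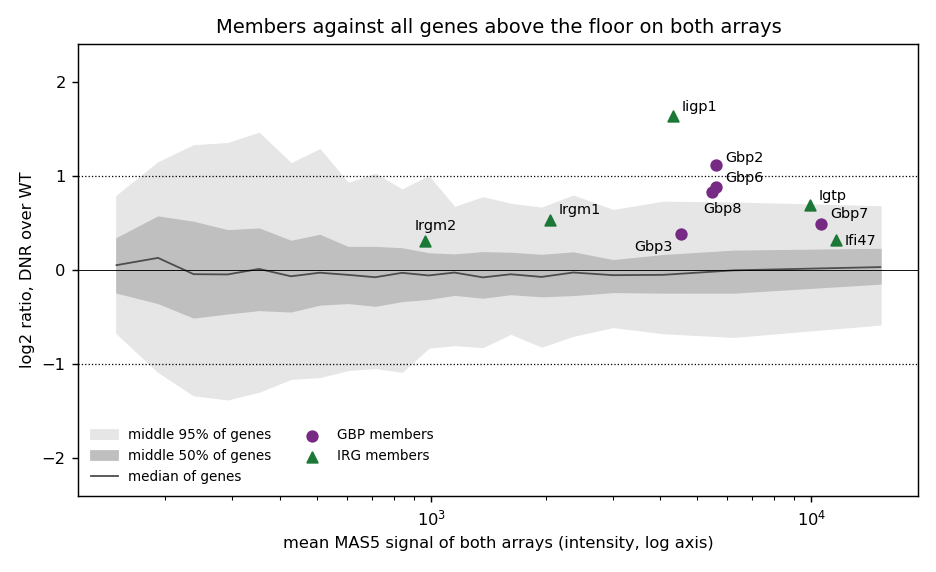
Log2 ratio of DNR over WT against mean MAS5 signal (log axis) for the 10 genes, GBPs as circles and IRGs as triangles, over the median, the middle 50% and the middle 95% of all genes of like signal (20 bins of genes above the floor on both arrays). Dotted lines mark 2-fold. All 10 lie above the middle 50%, and Iigp1 stands highest at 1.63.

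Promoters of genes that interferon-gamma induces often hold an interferon-gamma activated site (GAS) or an interferon response element, to which interferon regulatory factors such as IRF1 bind. RefSeq promoter windows (build GRCm38.p6) were found for 7 of the 10 genes, Gbp2, Gbp3, Gbp7, Igtp, Irgm1, Irgm2 and Ifi47. The 250 bases before the start of each were searched on both strands for the GAS, TTCNNNGAA, and for a core of the interferon response element, GAAANNGAA. The core was present in 6 of the 7 genes, against 8.18% of all 27025 genes of the promoter table. The GAS was present in 3 of the 7, Gbp7, Igtp and Irgm2, against 8.13% of all genes. These 3 held both motifs, against 0.881% of all genes. The genes were chosen as an interferon-inducible family, so these shares describe the choice of genes and are no result of the arrays. No window was found for Iigp1, Gbp6 and Gbp8. The stretches with matches are shown 5′ to 3′ in the orientation of the gene, with matched bases in capitals. A match on the opposite strand reads as the reverse complement.

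Gbp2, chr3:142620590-142620628, plus strand: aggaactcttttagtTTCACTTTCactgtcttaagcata

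Gbp3, chr3:142559985-142560029, plus strand: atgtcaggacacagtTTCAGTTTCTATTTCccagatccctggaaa

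Gbp7, chr3:142530215-142530307, plus strand: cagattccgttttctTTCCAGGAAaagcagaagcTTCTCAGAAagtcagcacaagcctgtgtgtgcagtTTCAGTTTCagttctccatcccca

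Igtp, chr11:58199496-58199545, plus strand: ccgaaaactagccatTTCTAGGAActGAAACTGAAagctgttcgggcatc

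Irgm2, chr11:58214887-58214936, plus strand: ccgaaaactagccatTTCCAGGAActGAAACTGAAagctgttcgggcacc

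Irgm1, chr11:48871421-48871465, minus strand: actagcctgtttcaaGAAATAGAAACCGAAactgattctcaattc

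The stretches of Igtp and Irgm2, which neighbour each other on chromosome 11, were the same at 48 of 50 bases, with the GAS 2 bases before the core in each. The log2 ratio was 0.69 for Igtp and 0.31 for Irgm2, each on a single probe set. With a robust standard deviation of 0.31 for a probe set of bright genes, whether these ratios differ cannot be told. In Gbp3 and in Irgm1 a pair of core matches overlapped by 3 bases. All core matches lay within the last 64 bases before the start. The window of Ifi47 and the window of another start of Gbp3 held neither string of letters. A match is a description of the sequence, and binding was not measured.

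**Figure D3:**
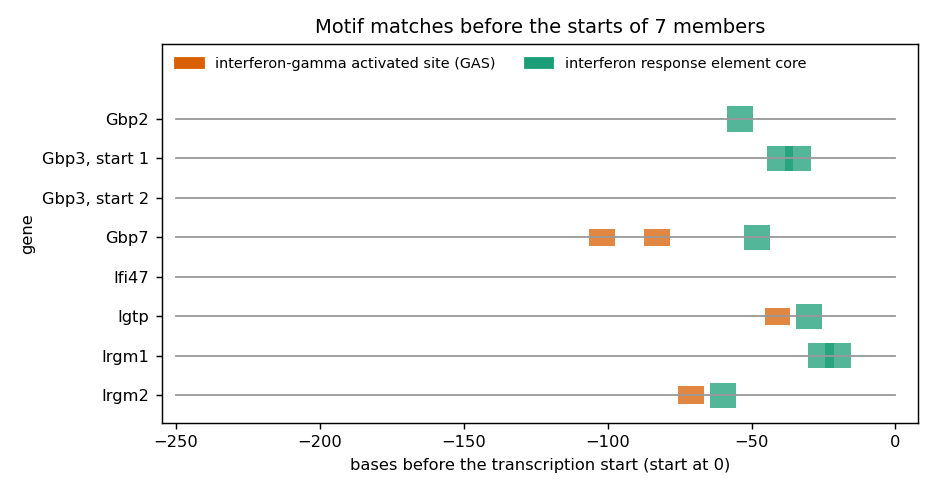
Positions of GAS matches (orange) and interferon response element core matches (green) in the 250 bases before 8 transcription starts of 7 genes, in bases from the start. Core matches sit between 64 and 16 bases before the start in 6 genes, and Ifi47 and the other Gbp3 start have no match.

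Of the genes that lead to GTPase induction or restrain it, Ifng, the gene of interferon-gamma itself, had 3524 in DNR Tregs and 1227 in WT Tregs, 2.87-fold higher. The receptor chains went opposite ways. Ifngr1, the ligand-binding chain, had 6068 in DNR Tregs and 4331 in WT Tregs, 1.40-fold higher, whereas Ifngr2, the signalling chain, had 437 in DNR Tregs and 988 in WT Tregs, 2.26-fold lower, with its other probe set at a log2 ratio of only -0.21. The kinase gene Jak1 was at -0.41 and Jak2 at 0.26. The transcription factor gene Irf1 had 19179 in DNR Tregs and 15724 in WT Tregs, 1.22-fold higher, and Irf8 was at 0.10. Socs1, the feedback inhibitor of the receptor, was at 0.24 and dim, with 234 in DNR Tregs and 199 in WT Tregs. Of 15 measured genes of this list 11 were higher, against 51.4% of all measured genes, with 1 at least 2-fold higher (Ifng) and 1 at least 2-fold lower (Ifngr2). The list mixes activators with inhibitors such as Socs1, so its counts and median give no direction of the pathway. The median log2 ratio was 0.26, which turned to -0.03 when the arrays were scaled to a common median. It was 0.02, over 11 genes, without probe sets ending in _s_at, _x_at or _a_at. The GTPases were at 0.61, at 0.31 with that scaling and at 0.66 without those endings.

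Other genes that interferon-gamma induces were mostly higher as well. Of 25 measured, 20 were higher in DNR Tregs, against 51.4% of all measured genes. The median log2 ratio was 0.31, or -0.01 with a common median. Lower were 5, Psme1, Tap2, H2-Aa, H2-Ab1 and H2-Eb1, at -0.04 to -0.46. For H2-Aa, 2 of 3 other probe sets had the opposite sign. At least 2-fold higher were 5 genes, against 4.00% of all measured genes. None was lower by that much, against 2.93%. The 5 were Casp4, an inflammatory caspase that senses bacterial lipopolysaccharide (3369 in DNR Tregs and 1088 in WT Tregs, 3.10-fold), the chemokine gene Cxcl10 (4464 in DNR Tregs and 1484 in WT Tregs), Casp1, which matures interleukin-1 (1990 in DNR Tregs and 778 in WT Tregs, 2.56-fold), Cd274, which encodes the checkpoint ligand PD-L1 (3929 in DNR Tregs and 1633 in WT Tregs, 2.41-fold), and the adhesion molecule gene Icam1 (4019 in DNR Tregs and 1869 in WT Tregs, 2.15-fold). None of these 5 had a further probe set above the floor to compare. Casp1 and Casp4 also belong to a list of 8 inflammasome genes, which act downstream of or beside GBPs. Of its 7 measured genes 5 were higher, against 51.4% of all measured genes. The median was 0.58, the value of Pycard, whose other probe set was at -0.0039, and it was 0.32 with each gene at the median of its probe sets and 0.29 with a common median. The pore-forming effector of that pathway, Gsdmd, had 535 in DNR Tregs and 979 in WT Tregs, 1.83-fold lower.

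Antiviral genes that type I interferon mainly induces were split: of 28 measured, 15 were higher and 13 lower, with a median log2 ratio of 0.05, near the 0.01 of all measured genes (-0.21 and -0.25 with a common median). None was at least 2-fold higher, and Ifit3, which binds viral RNA complexes, was 2.36-fold lower (459 in DNR Tregs and 1083 in WT Tregs). The highest was Zbp1, a sensor of viral nucleic acid, at 0.77, but its other probe set was at -0.80. Of the type I interferon receptor genes and their kinase, Ifnar2 was at 0.48, with its other probe sets at -0.30 and 0.20, Tyk2 was at 0.17 and Ifnar1 was lower, at -0.14. The medians of 0.61 for the GTPases and 0.05 for the antiviral genes were not compared by a test.

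Of 26 listed relatives of the GTPases, 4 were measured, 2 of them higher in DNR Tregs, with a median log2 ratio of 0.23 that turned to -0.06 with a common median. Gm4951, a predicted gene of that list, was the only one past the threshold, with 751 in DNR Tregs and 181 in WT Tregs, 4.15-fold higher, though its WT signal was close to the floor. Gm12185 was at 0.56 with both signals near the floor (170 in DNR Tregs and 116 in WT Tregs). The GBP gene Gbp2b, a neighbour of Gbp2 and Gbp3 on chromosome 3, was not higher: it had 797 in DNR Tregs and 924 in WT Tregs, a log2 ratio of -0.21. A further 3 probe sets that the annotation gives to several genes of these families were not used.

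A list of autophagy genes was not higher as a set. It holds mainly the conjugation enzymes, ubiquitin-like proteins and adaptors that help to place IRGs and GBPs on vacuoles, and also some genes that start autophagy. Of 16 measured genes, 4 were higher in DNR Tregs, 12 were lower, and the median log2 ratio was -0.09. For the 4473 bright genes the median was -0.03. Several of the 16 had another probe set with the opposite sign, so the split between higher and lower is not firm. Only Atg14, a subunit of the lipid kinase complex that starts autophagosomes, passed the threshold. It had 160 in DNR Tregs, near the floor, and 323 in WT Tregs, 2.02-fold lower. Gabarapl1, one of the ubiquitin-like proteins, was at -0.63, with its other probe set at 0.18.

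**Figure D4:**
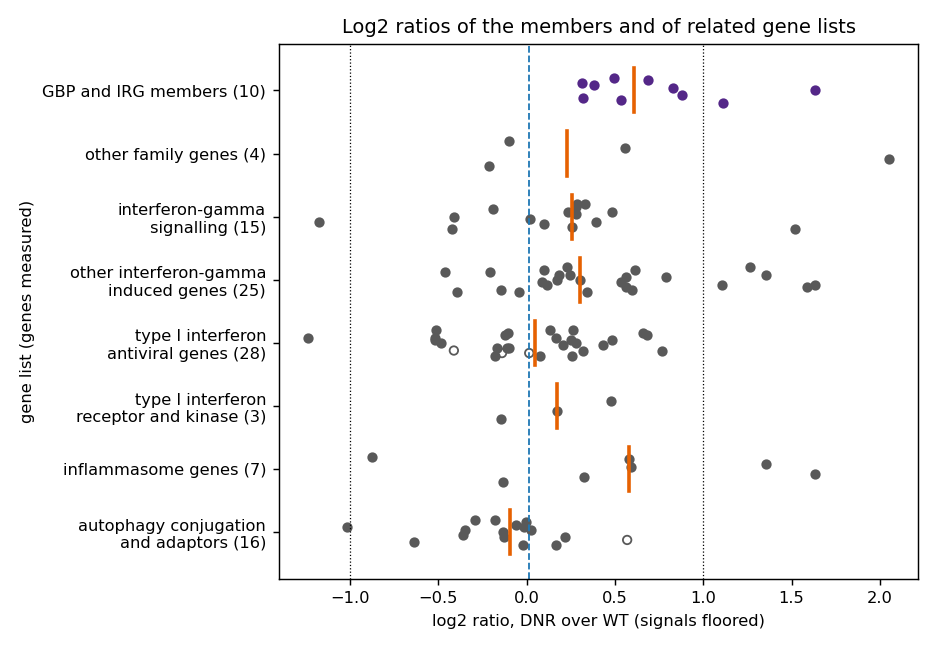
Log2 ratios of DNR over WT (signals floored) for the 10 GTPases (purple) and the measured genes of 7 related lists (grey, open where a signal was below the floor on 1 array), with list medians in orange, 2-fold as dotted lines and the median of all measured genes as a dashed line at 0.01. The GTPase points all lie above 0.3, while the antiviral genes spread to both sides.

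The label of the cells was checked with marker genes. Foxp3 had 4550 in DNR Tregs and 3754 in WT Tregs, and Ctla4 and Il2ra, further Treg genes, were bright on both arrays, so transcripts that mark Tregs were present in both. Of 9 Treg and T cell markers measured, 6 were higher and 3 lower in DNR Tregs. Among the lower ones were Il2ra, with 3969 in DNR Tregs and 4591 in WT Tregs, and Cd4. Cd4 was dim, with 415 in DNR Tregs and 595 in WT Tregs. Macrophages also make large amounts of GBPs and IRGs. Of 14 macrophage and monocyte markers on the array 10 were above the floor in each genotype, and 9 of these 10 were lower in DNR Tregs. The signals of all 14 summed to 26103 in DNR Tregs and 27643 in WT Tregs, most of it from Ctss, and without Ctss to 4752 in DNR Tregs and 6646 in WT Tregs. Csf1r had 1449 in DNR Tregs and 1799 in WT Tregs. Of 8 dendritic cell markers, 3 were above the floor in DNR Tregs and 1 in WT Tregs. The signals of all 8 summed to 5112 in DNR Tregs and 11824 in WT Tregs, most of it from Ccr7, which T cells also express. Without Ccr7 the order turned, to 485 in DNR Tregs and 391 in WT Tregs, with every WT signal among these below the floor. Of the 3 dendritic cell markers measured, 2 were higher in DNR Tregs and 1, Ccr7, was lower. Of 8 B cell markers 3 were above the floor in each genotype, with sums of 20595 in DNR Tregs and 16209 in WT Tregs carried mainly by Ighm. Of the 4 B cell markers measured 3 were higher in DNR Tregs, among them Cd79b with 869 in DNR Tregs and 666 in WT Tregs, while Cd79a was below the floor on both arrays. Of 7 CD8 T and NK cell markers 6 were above the floor in each, summing to 1437 in DNR Tregs and 1316 in WT Tregs. Of 10 neutrophil markers, 4 were above the floor in DNR Tregs and 2 in WT Tregs, 6 had a higher and 4 a lower signal in DNR Tregs, with sums of 1510 in DNR Tregs and 784 in WT Tregs. Of the 4 neutrophil markers measured, 3 were at least 2-fold higher, against 4.00% of all measured genes, and 1 was lower. The 3 were Mmp9 (537 in DNR Tregs and 184 in WT Tregs), S100a8 (285 in DNR Tregs and 47 in WT Tregs) and Ngp (287 in DNR Tregs and 38 in WT Tregs). For S100a8 and Ngp the WT signal was below the floor. They counted as measured through the DNR array alone, so they could only come out higher. The same holds for the 2 higher dendritic cell markers and for Fcer2a among the B cell markers. The 1 lower B cell marker exceeded the floor in WT Tregs alone and could only come out lower. Over all genes, 1813 exceeded the floor for DNR only and 833 for WT only. No marker on the array had a signal of 0. The part of other cell types in the GTPase signals was not tested. In RNA from a bulk sort, a larger share of cells with these transcripts and more transcript per cell cannot be told apart.

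The direction held under every other processing that was run, but the size depended on how the arrays were scaled. Settings that changed only the floor could not alter the ratios of the 10 genes, which lay far above it. Those settings are no check of the direction. Scaling both arrays to a common median took 0.28 off the log2 ratio of every probe set that no floor touched and shifted the median of all measured genes to -0.25. All 10 genes stayed above 0 even then, but Irgm2 was at 0.03 and Ifi47 at 0.04, well within the spread between probe sets, and Gbp2 was below the threshold. Gbp2 was at 0.83 on the probe set used above, and at 0.38 where the brighter probe set was chosen anew after scaling, since that choice moved to its other probe set. None of the other 9 changed probe set with this scaling. Relative to all measured genes, the median of the 10 was 0.60 higher as reported and 0.56 higher with that scaling. Iigp1 was past 2-fold in each of 9 settings, at 1.35 to 1.65.

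**Figure D5:**
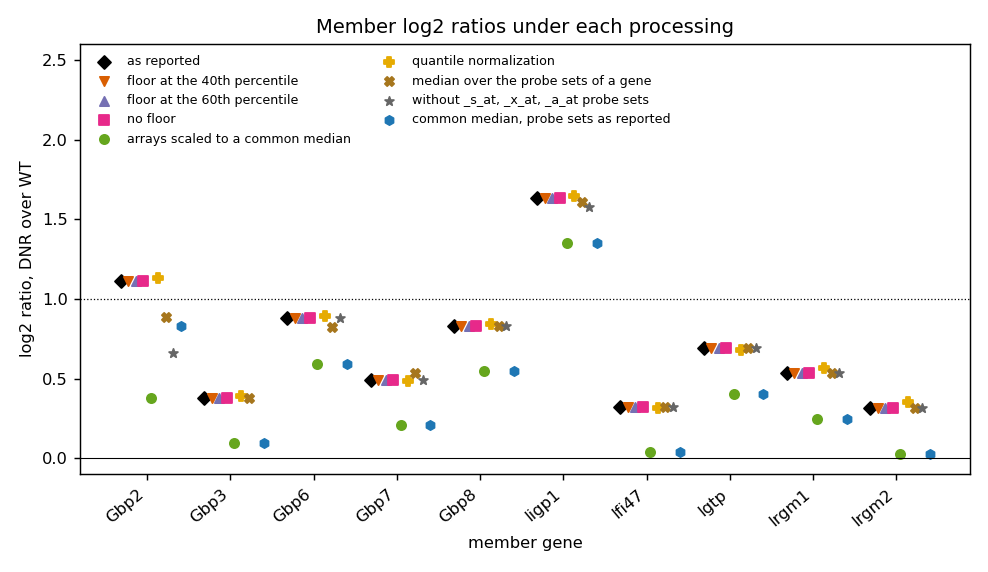
Log2 ratio of DNR over WT of each gene as reported (black diamonds) and under 8 alternative settings, with 2-fold as a dotted line. Scaling to a common median, with probe sets chosen anew (green circles) or kept as reported (blue hexagons), gives the lowest values for 9 genes, down to 0.03 for Irgm2, and for Gbp2 the green circle at 0.38 is also a change of probe set; only Iigp1 is past 2-fold in all settings.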

How the data were processed

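Total RNA of 1 DNR and 1 WT Treg sample was hybridised to Affymetrix arrays. The deposited values are 1 signal intensity per probe set and array, for which the submitters' processing notes name MAS5 and which are on a linear scale. Their scaling and genome build were not stated in the sources used here. The sorting protocol names DNR mice for both samples, which conflicts with the title and genotype label of the WT sample; the genotypes were taken from these labels, and the arrays hold no check of them used here. Of 45101 probe sets, 64 controls were set aside. The annotation gave exactly 1 gene to 34945 of the remaining 45037, several to 932 and none to 9160. Where a gene had several probe sets, the one brightest over both arrays stood for it. Signals under 110.9, the higher array median, were set to it before log2 ratios were taken with Python 3.11.15 and pandas 2.3.3. The steps were tested on simulated data with changes larger than any of the 10 genes showed, so recovery at the sizes reported was not tested. Precision is limited by having 1 array per genotype. The 10 genes, the lists, the floor and the threshold were chosen with earlier results of these data known. Named beside the 10 genes are those of each list past 2-fold or with the largest ratios, and a set list of signalling genes and cell markers; not all of them are printed. Gsdmd, Pycard, Gbp2b, Ifnar1, Ighm, Ctss, Psme1, Tap2, H2-Aa, H2-Ab1 and H2-Eb1 were outside this rule and were picked after their values were seen. Alternatives changed the floor, the scaling, the choice of probe set and the threshold; scaling with probe sets kept was added after seeing the data. Promoter windows are RefSeq's, build GRCm38.p6.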

Additional observations from a re-analysis of the deposited data

How the results depend on the processing

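No paired analysis was possible because there is 1 array per genotype. Changes of the floor could not move the GTPase values, which lie far above it. The median over probe sets could not move the 6 genes with 1 probe set. Those entries are counted below, but their outcome was fixed in advance. Gbp3 had no value without probe sets ending in _s_at, _x_at or _a_at. Of 79 values of single GTPase genes under 8 alternatives, 79 were above 0 and 75 kept their side of 2-fold. The 4 that did not are Gbp2 with a common median (0.38, on its other probe set, which was the brighter after scaling), with a common median and the probe set as reported (0.83, chosen after seeing the data), with its probe sets summarised by their median (0.89) and without those endings (0.66), so the count of GTPases at least 2-fold higher was 1 in these settings, against 2 as reported. It was 5 at a threshold of 1.5-fold and 1 at 3-fold. Counts over all measured genes moved more. The 477 higher and 350 lower became 1026 and 550 when the 40th percentile served as floor, 3617 and 2655 with no floor, 280 and 804 with a common median, 284 and 794 with a common median and probe sets as reported, 1526 and 1175 at 1.5-fold and 56 and 63 at 3-fold, and the higher count was 250 when the 60th percentile served as floor. With a common median, list medians turned below 0, to the same values with probe sets as reported: -0.0557 for the other family genes, -0.0272 for interferon-gamma signalling, -0.00922 for other interferon-gamma induced genes, -0.21 for type I antiviral genes and -0.11 for the type I receptor genes. The median of all measured genes turned as well, to -0.251 and -0.248 there, -0.0111 with the 60th percentile as floor and -0.00395 with quantile normalization. With the 60th percentile as floor the other family genes were at -0.0350. The common median lowers ratios by construction; for the other changes the cause was not tested. Signals near the floor, as for Gm4951, limit those ratios.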
